A study of Homo sapiens with 28 samples.

Results

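The comparison set the wild-type MDST8 line against the libraries labelled LoVo shRNA control, 3 RNA-seq libraries a side, which are 6 of the 24 RNA-seq libraries and of the 28 samples of the series. MDST8 and LoVo are human colorectal carcinoma (CRC) lines, which the study uses as a line of the mesenchymal consensus subtype CMS4 and as a line outside it. MDST8 WT is labelled wild type with no treatment, whereas the LoVo libraries are labelled wild type in genotype and shRNA control in treatment, and the methods describe lentiviral delivery of the hairpins. The labels give DMEM with 10% FBS for all samples, whereas the methods name more than a single medium without tying each to a line. The libraries were chosen by label alone: the counts of both lines were joined on the gene identifier, and genes of the Y chromosome were left out. Total counts ran from 16968708 to 20889529. Cell line, hairpin vector and count table, with any difference in medium, go together with the groups and cannot be told apart here. The libraries of a line are named A, B and C, and nothing says that they came from separate cultures, so p-values measure the spread between these libraries.

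Epithelial-mesenchymal transition (EMT) is the passage of a cell from a state held together by E-cadherin junctions to a migratory state built on vimentin, N-cadherin and a secreted matrix. It is driven by transcription factors of the TWIST, SNAI and ZEB families, which bind short sequences called E-boxes, and is opposed by epithelial factors of the GRHL, OVOL and ESRP families and by the miR-200 microRNAs, which repress ZEB1 and ZEB2. Intestinal epithelium is further marked by the factors CDX2 and HNF4A.

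Levels are given as counts scaled to library size with TMM factors (CPM). Where a pair of CPM values is given for a gene, it is the mean ± SD of the 3 MDST8 WT libraries followed by that of the 3 LoVo-labelled control libraries. A log2 fold change is MDST8 WT minus LoVo-labelled control, so a positive value is higher in MDST8 WT. A gene was called when this change exceeded 0.58 in size and its p from the quasi-likelihood test of edgeR, adjusted after Benjamini and Hochberg, was below 0.05. Of 14303 genes tested, 4623 (32.3%) were higher in MDST8 WT and 4709 (32.9%) were higher in the LoVo-labelled control libraries. The median log2 fold change over all genes tested was 0.0024. A filter on low counts over both lines came first, so list counts cover the members that passed it: 9 of 10 EMT factors, 13 of 14 epithelial regulators, 40 of 41 junction genes, 11 of 19 keratins, 32 of 38 mesenchymal markers, 22 of 40 collagens, 27 of 31 integrins and laminins, 15 of 20 intestinal factors, 30 of 51 intestinal differentiation genes, 23 of 27 WNT and stem genes, 33 of 35 TGF-β and BMP genes, 22 of 24 interferon-stimulated genes, 30 of 39 HOX genes, 29 of 34 receptor kinases and all of the others but the markers of other cells. A member absent from a line passed only where it was high in the other. Because 65.2% of the genes were called, a call alone says little of a list, and each list below is to be read against these shares. Of the calls, 1663 in MDST8 WT and 1994 in the LoVo-labelled control libraries exceeded 4-fold, and 893 and 1159 exceeded 16-fold. At the other end, 3382 genes (23.6%) had a 95% interval of the log2 fold change that lay wholly within 0.58 of zero. The 3 libraries of each line did not overlap for 9277 of the 9332 called genes (99.4%), against 12609 of all genes tested (88.2%). A gene was taken as restricted to a line when it had under 3 counts in each library of the other line and at least 10 CPM in each of its own, which held for 190 genes of MDST8 WT (1.33% of the genes tested) and for 316 of the LoVo-labelled control libraries (2.21%). Bulk RNA does not tell fewer cells with a transcript from less of it per cell.

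**Figure D1:**
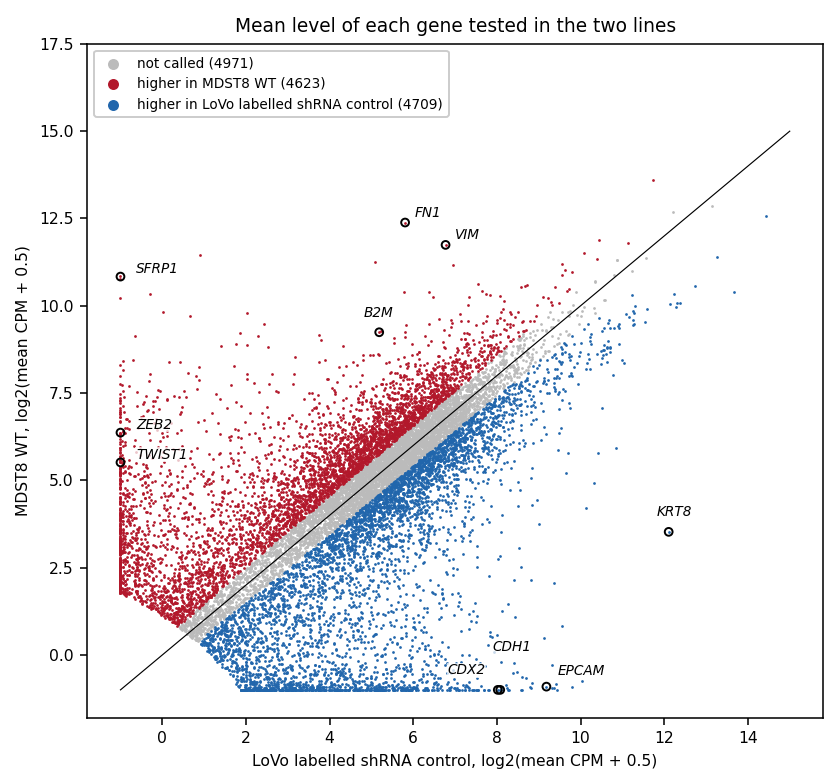
Mean level of each gene tested in the LoVo-labelled control (horizontal) and MDST8 WT (vertical) libraries, as log2(mean CPM + 0.5), n = 3 libraries a side. Each point is a gene, coloured by call, with 4623 called above and 4709 called below the diagonal of equal level; the genes along the left and lower edges are at or near 0 in a single line.

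TWIST1, the basic helix-loop-helix factor the study is about (chr7:19020991-19117636 on hg38), was read in MDST8 WT and not in the LoVo-labelled control libraries. It had 845, 1034 and 797 counts in MDST8 WT A, B and C, or 44.3, 51.6 and 39.7 CPM, and 0 counts in each of the LoVo-labelled control libraries. With a floor of 3 counts per library for a group at 0, the level in MDST8 WT was at least 270.4-fold higher. The libraries labelled LoVo TWIST1 shRNA held 73, 89 and 93 counts, so TWIST1 reads run against the labels within LoVo, and the control libraries are named by their label throughout for this reason. The study also assessed the LoVo knockdown by qRT-PCR of TWIST1 RNA and by western blot, which these files do not hold.

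Of the 9 EMT transcription factors that could be tested, 7 were higher in MDST8 WT and 2 were higher in the LoVo-labelled control libraries, with a median log2 fold change of 3.18 against 0.0024 for all genes. ZEB2, a zinc-finger repressor of E-cadherin (chr2:144364364-144521057), had 79.5, 81.5 and 85.2 CPM in MDST8 WT and no count in the LoVo-labelled control libraries, a level at least 491-fold higher. SNAI2, the repressor also called SLUG, had 141, 139 and 138 CPM in MDST8 WT and 1, 0 and 0 counts in the LoVo-labelled control libraries, a ratio of 6872-fold (95% counting interval 1233 to 271424). These groups lay far apart in each case. ZEB1, the paralog of ZEB2, was not restricted to a line: it had 45.7, 48.2 and 46.6 CPM in MDST8 WT and 11.1, 10.4 and 9.78 CPM in the LoVo-labelled control libraries (log2 fold change 2.17, SE 0.0796, adjusted p = 1.32e-20). TCF4, an E-protein partner of TWIST1, stood at 58.1 ± 1.80 and 6.38 ± 0.797 CPM (log2 fold change 3.18), PRRX1 at 27.9 ± 1.32 and 3.99 ± 0.862 CPM and FOXC2 at 8.87 ± 0.858 and 0.279 ± 0.0278 CPM. The SNAI family split. SNAI1, the founding repressor of E-cadherin, had 0.262, 0.150 and 0.199 CPM in MDST8 WT and 22.01, 17.8 and 17.4 CPM in the LoVo-labelled control libraries, which were the higher group (log2 fold change -6.51, SE 0.227, adjusted p = 3.64e-21). SNAI3 was also higher there, at 0.491 ± 0.0739 and 2.72 ± 0.623 CPM, whereas TWIST2 had no count in either line.

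**Figure D2:**
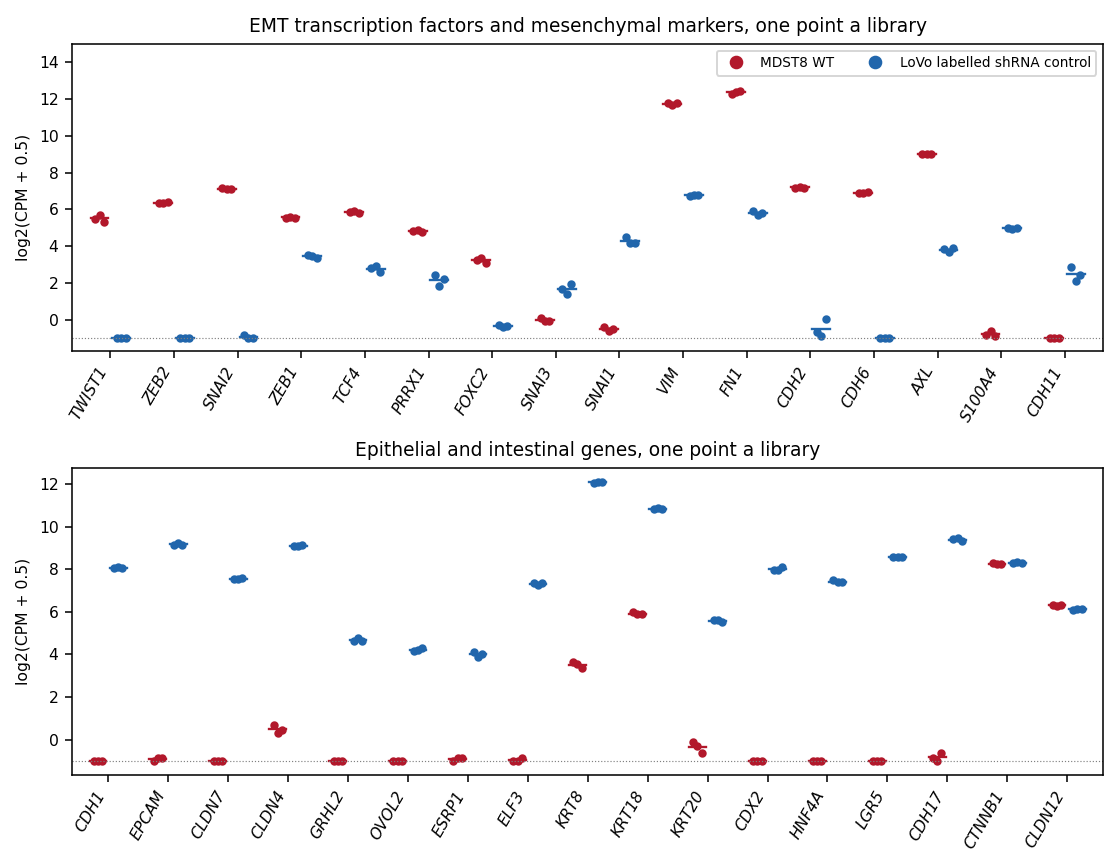
Level of single genes as log2(CPM + 0.5) in each library, with a bar at the mean (n = 3); the dotted line is 0 CPM. EMT factors and mesenchymal markers are above and epithelial and intestinal genes below; SNAI1, S100A4 and CDH11 lie higher in the LoVo-labelled control libraries than in MDST8 WT, and CTNNB1 and CLDN12 lie at like levels in both.

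The epithelial regulators all lay in the other direction. All 13 tested were higher in the LoVo-labelled control libraries, with a median log2 fold change of -8.29, or -7.37 with genes at 0 set to their lower bound, and their summed level was 18.2 to 21.2 CPM in the MDST8 WT libraries and 1536 to 1579.8 CPM in the LoVo-labelled control libraries. GRHL2, a factor that maintains epithelial junctions, had no count in MDST8 WT and 24.4, 26.7 and 24.4 CPM in the LoVo-labelled control libraries. OVOL2, a repressor of ZEB1, likewise had no count against 17.45, 17.9 and 19.5 CPM. The splicing regulators ESRP1 and ESRP2, which set epithelial exon choice, stood at 0.0332 ± 0.0288 and 15.6 ± 1.28 CPM and at 0.305 ± 0.0592 and 60.3 ± 3.12 CPM. ELF3 and EHF, ETS factors of epithelia, had 0, 0 and 1 and 3, 0 and 1 counts in the MDST8 WT libraries and means of 159 and 457 CPM in the LoVo-labelled control libraries. KLF5, a factor of intestinal crypts, was present in MDST8 WT at 12.7, 11.6 and 14.7 CPM, against 509, 528 and 506 CPM (log2 fold change -5.30, SE 0.0631, adjusted p = 2.12e-32). GRHL1 changed least of the list, at 2.52 ± 0.778 and 10.1 ± 0.555 CPM.

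MIR200CHG, the host transcript of miR-200c and miR-141, fell under the filter. It had no count in any MDST8 WT library and 19, 8 and 7 counts in the LoVo-labelled control libraries, which is at least 4.27-fold more. The libraries were made from polyadenylated RNA, so mature microRNAs were not measured. The mature family is printed for its seeds (bases 2 to 8, in capitals), taken from RefSeq on GRCh38.p14; the members fall into groups that differ at a single seed base.

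hsa-miR-200b-3p: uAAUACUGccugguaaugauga
hsa-miR-200c-3p: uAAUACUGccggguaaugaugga
hsa-miR-429: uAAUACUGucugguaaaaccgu
hsa-miR-200a-3p: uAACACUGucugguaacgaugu
hsa-miR-141-3p: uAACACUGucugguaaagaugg

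The genes of epithelial junctions were nearly all lower in MDST8 WT. Of 40 tested, 36 were higher in the LoVo-labelled control libraries, none was higher in MDST8 WT and 4 were not called, and the median log2 fold change was -7.78. E-cadherin, CDH1 (chr16:68737292-68835537), had 0 counts in each MDST8 WT library and 270.5, 272 and 267 CPM in the LoVo-labelled control libraries, at least 1774-fold higher. EPCAM, an adhesion molecule of epithelia, had 0, 1 and 1 counts in MDST8 WT and 566, 609 and 567 CPM in the LoVo-labelled control libraries, a ratio of 17476-fold (95% counting interval 4838 to 144305). Of the claudins, which seal tight junctions, CLDN7 had no count in MDST8 WT against 187 ± 4.36 CPM (SD, n = 3), and CLDN3 and CLDN4 stood at 0.0332 ± 0.0575 and 50.7 ± 1.82 CPM and 0.899 ± 0.182 and 556 ± 11.3 CPM. Desmosomes followed, with desmoplakin (DSP) at 3.64 ± 0.717 and 663 ± 24.8 CPM and desmocollin 2 (DSC2) at 0 counts against 77.6 CPM. SPINT1 and SPINT2, inhibitors of the membrane protease matriptase, and matriptase itself (ST14) were low together: ST14 stood at 0.370 ± 0.198 and 275 ± 8.45 CPM, SPINT1 had 1, 0 and 0 counts in MDST8 WT and SPINT2 had none.

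The members of this list that were not called were CLDN12, CLDN15, CTNNB1 and CTNND1. CTNNB1, β-catenin, which joins cadherins to actin and also carries WNT signals, had 316, 304 and 303 CPM in MDST8 WT and 315, 327 and 315 CPM in the LoVo-labelled control libraries, with a 95% interval of the log2 fold change of -0.14 to 0.03. CLDN12 stood at 78.6 ± 2.03 and 69.4 ± 1.16 CPM, with an interval of 0.07 to 0.29. CTNNA1, α-catenin, was called at a small size (log2 fold change -0.75, SE 0.0422, adjusted p = 5.18e-16). The cadherin was at 0 in MDST8 WT while transcripts of its cytoplasmic partners were present in both lines.

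E-boxes were counted in the RefSeq promoters, windows of 300 bases (250 before and 50 after the start of the gene) that were at hand for 10796 of 14298 symbols tested. The letters searched were CAGGTG, the E-box that ZEB and SNAI factors bind, which reads CACCTG on the other strand, and CATCTG, an E-box of TWIST factors, which reads CAGATG on the other strand; matches of either kind may share bases with other matches. CAGGTG or CACCTG stood in 20.6% of all 27195 promoters of the table and in 18.3% of those of the genes tested. It stood in 22.5% of promoters of genes higher in the LoVo-labelled control libraries, in 15.5% of those of genes higher in MDST8 WT and in 17.1% of those of genes not called. Among the genes restricted to a line it stood in 82 of 213 promoters of the LoVo-labelled control libraries (38.5%, 95% exact binomial interval 31.9 to 45.4) and in 17 of 133 of MDST8 WT (12.8%, interval 7.63 to 19.7). CATCTG or CAGATG did not follow this order, with 8.92% and 15% in these classes and 9.36% of the genes tested. Among the junction genes, 10 of the 23 promoters at hand held CAGGTG or CACCTG, against 2 of 19 for the mesenchymal markers below. The other lists counted had 3 of 7 for epithelial regulators, 1 of 4 for keratins and 4 of 18 (22.2%) for collagens. The share of collagens, mostly higher in MDST8 WT, had a 95% exact binomial interval of 6.41 to 47.6%. This covers the shares of genes higher in MDST8 WT and of genes higher in the LoVo-labelled control libraries. These shares describe letters in a window and not binding. The base composition of the windows was not matched, and no test was made between them.

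**Figure D3:**
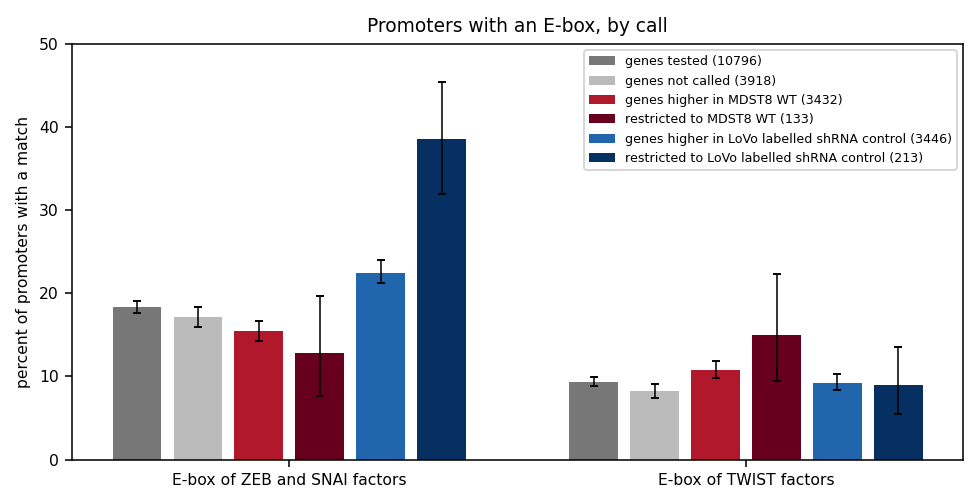
Percent of RefSeq promoters that hold an E-box, by call of the gene; the first group is CAGGTG or CACCTG and the second CATCTG or CAGATG, with the number of promoters in brackets and 95% exact binomial intervals as bars. The darkest blue bar, genes restricted to the LoVo-labelled control libraries, is at 38.5% for the first E-box and at 8.92% for the second.

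The promoters printed were picked by their matches: those of junction and intestinal genes with several, and that of CDH2 (N-cadherin), which holds none. Because of this choice they show where the letters lie and cannot show whether E-boxes go with direction. All were read from RefSeq on GRCh38.p14, 5′ to 3′ on the strand of the gene, with both E-boxes in capitals. CRB3, a polarity protein of the apical membrane (chr19:6464021-6464320, plus strand), held 5 matches, the first at base -228 and the last at base -60 from the start. AP1M2, the epithelial subunit of a clathrin adaptor (chr19:10587263-10587562, minus strand), held 3 copies of CACCTG at bases -57, -27 and -15 and a CATCTG. RAB25, an epithelial GTPase of membrane recycling (chr1:156060910-156061209, plus strand), held 2, at bases -41 and 38, and GPA33, an intestinal surface antigen (chr1:167090328-167090627, minus strand), held 2, at bases -104 and -79. The window of CDH2 was chr18:28177081-28177380, minus strand.

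CRB3: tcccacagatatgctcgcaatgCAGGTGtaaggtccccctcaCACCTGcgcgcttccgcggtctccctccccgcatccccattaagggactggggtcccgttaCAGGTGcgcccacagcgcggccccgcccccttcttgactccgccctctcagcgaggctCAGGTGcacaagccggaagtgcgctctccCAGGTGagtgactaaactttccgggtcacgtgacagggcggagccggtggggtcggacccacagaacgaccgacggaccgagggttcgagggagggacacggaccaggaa
AP1M2: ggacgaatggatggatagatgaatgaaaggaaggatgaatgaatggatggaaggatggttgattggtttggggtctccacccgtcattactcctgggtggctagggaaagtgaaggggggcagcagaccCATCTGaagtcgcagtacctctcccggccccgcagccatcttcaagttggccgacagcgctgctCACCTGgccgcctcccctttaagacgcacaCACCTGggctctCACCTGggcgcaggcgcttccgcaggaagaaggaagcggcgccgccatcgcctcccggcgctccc
RAB25: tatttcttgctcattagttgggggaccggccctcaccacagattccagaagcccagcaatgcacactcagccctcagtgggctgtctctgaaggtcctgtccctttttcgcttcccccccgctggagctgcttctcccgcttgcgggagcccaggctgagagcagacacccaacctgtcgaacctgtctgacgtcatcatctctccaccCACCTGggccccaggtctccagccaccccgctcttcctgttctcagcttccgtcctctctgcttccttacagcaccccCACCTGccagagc
GPA33: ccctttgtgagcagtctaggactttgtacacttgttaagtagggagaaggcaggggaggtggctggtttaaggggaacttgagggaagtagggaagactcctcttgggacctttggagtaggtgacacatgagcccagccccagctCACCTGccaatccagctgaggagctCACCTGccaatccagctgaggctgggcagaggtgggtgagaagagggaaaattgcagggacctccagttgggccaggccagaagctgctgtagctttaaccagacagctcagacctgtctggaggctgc
CDH2: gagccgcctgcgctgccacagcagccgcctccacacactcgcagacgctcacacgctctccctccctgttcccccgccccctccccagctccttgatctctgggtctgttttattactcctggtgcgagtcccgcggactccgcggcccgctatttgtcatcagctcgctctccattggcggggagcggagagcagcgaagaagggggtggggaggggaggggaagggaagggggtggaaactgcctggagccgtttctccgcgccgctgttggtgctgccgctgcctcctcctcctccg

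The genes behind these picked promoters differed widely between the lines. CRB3 had 2, 0 and 1 counts in the MDST8 WT libraries and 46.2, 46.5 and 52.6 CPM in the LoVo-labelled control libraries (log2 fold change -9.72, SE 0.212, adjusted p = 3.41e-26). AP1M2 stood at 0.153 ± 0.0551 and 74.4 ± 3.52 CPM and RAB25 at 0.0166 ± 0.0288 and 64.9 ± 1.28 CPM. GPA33 had no count in MDST8 WT against 61.9, 60.2 and 59.5 CPM. CDH2, with no E-box of either kind in its window, had 145, 148 and 145 CPM in MDST8 WT and 0.122, 0.0498 and 0.509 CPM in the LoVo-labelled control libraries (log2 fold change 9.32, SE 0.142, adjusted p = 6.31e-30).

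Keratins, the intermediate filaments of epithelia, gave 9 genes higher in the LoVo-labelled control libraries and 2 higher in MDST8 WT of 11 tested. KRT8 and KRT18, the pair of simple epithelia, stood at 11.01 ± 1.18 and 4407 ± 62.0 CPM and at 60.1 ± 2.22 and 1841 ± 30.5 CPM, and KRT19 at 0.319 ± 0.290 and 642 ± 32.5 CPM. KRT8 had 12.1, 11.2 and 9.76 CPM in MDST8 WT against 4339, 4423 and 4459.7 CPM, so it was present in both. Both have many processed pseudogenes, and reads shared with these are uncertain. The summed level of the list was 131 to 138 CPM in the MDST8 WT libraries and 6920.3 to 7157 CPM in the LoVo-labelled control libraries. KRT20, a keratin of differentiated enterocytes, stood at 0.289 ± 0.135 and 47.5 ± 1.12 CPM. The exceptions were KRT10, at 39.1 ± 0.511 and 11.1 ± 0.631 CPM, and KRT15, at 12 ± 0.470 and 2.24 ± 0.219 CPM, which are keratins of stratified epithelia.

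Mesenchymal markers ran the other way, with 27 of 32 tested higher in MDST8 WT, 3 higher in the LoVo-labelled control libraries and a median log2 fold change of 3.88. Vimentin (VIM) had 3503, 3315 and 3464 CPM in MDST8 WT and 107, 111 and 108 CPM in the LoVo-labelled control libraries (log2 fold change 4.98, SE 0.0498, adjusted p = 5.7e-34). Fibronectin (FN1) had 4982, 5399 and 5648 CPM against 60.1, 51.3 and 54.7 CPM (log2 fold change 6.59, SE 0.0644, adjusted p = 3.9e-34), the second largest difference in mean CPM of any protein-coding gene higher in MDST8 WT, after ACTB. All 3 libraries of MDST8 WT lay far above those of the LoVo-labelled control group for both. Cadherin 6 (CDH6) had 118, 119 and 121 CPM in MDST8 WT and no count in the LoVo-labelled control libraries. THY1 and FAP, surface markers of fibroblasts, had means of 77.3 ± 2.06 and 41.6 ± 2.46 CPM in MDST8 WT and no count in the LoVo-labelled control libraries. AXL, a receptor kinase of mesenchymal tumour cells, stood at 514 ± 0.538 and 13.5 ± 1.07 CPM, and the collagen crosslinkers LOX and LOXL2 at 178 ± 3.32 and 1.92 ± 0.219 CPM and at 333 ± 9.48 and 0.623 ± 0.0671 CPM.

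Some members of the list did not follow its name. CDH11, a cadherin of mesenchyme, had no count in MDST8 WT and 6.81, 3.83 and 4.98 CPM in the LoVo-labelled control libraries. S100A4, also called fibroblast-specific protein, had 1, 3 and 1 counts in MDST8 WT against 31.7, 30.1 and 31.7 CPM (log2 fold change -8.42, SE 0.211, adjusted p = 1.14e-24). CAV2 was higher in the LoVo-labelled control libraries (-0.94) while its partner CAV1 was higher in MDST8 WT (1.46). TPM1 and PDGFRB were not called. The contractile genes ACTA2, TAGLN and MYL9 were called in MDST8 WT at 22.6 ± 1.83 and 8.87 ± 0.786 CPM, 10.2 ± 0.965 and 4.69 ± 0.736 CPM and 22.5 ± 1.35 and 6.92 ± 1.06 CPM, and DCN, POSTN and PDGFRA, markers of fibroblasts, had under 2 CPM in both lines.

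Collagens were called in both directions, and chains of a single type could differ. Of 22 collagens tested, 15 were higher in MDST8 WT, 6 were higher in the LoVo-labelled control libraries and 1 was not called. COL6A2 had 1782, 1823 and 1679 CPM in MDST8 WT and no count in the LoVo-labelled control libraries, at least 10538-fold higher, while COL6A1, its neighbour in the same collagen, was present in both, at 874 ± 25.2 and 139 ± 8.45 CPM, and COL6A3, the remaining chain, was higher in the LoVo-labelled control libraries at 2.2 ± 0.241 and 9.03 ± 0.980 CPM. The libraries labelled LoVo TWIST1 shRNA had 281 to 347 CPM of COL6A2. COL1A1 stood at 599 ± 8.23 and 3.13 ± 1.30 CPM, but COL1A2, which encodes the other chain of type I collagen, had under 1 CPM in both lines. Basement-membrane COL4A1 and COL4A2 were called in MDST8 WT, at 153 ± 3.69 and 0.385 ± 0.0897 CPM and 451 ± 3.45 and 5.31 ± 0.934 CPM. COL17A1, a collagen of hemidesmosomes, was called the other way (2.30 ± 0.699 and 178 ± 4.83 CPM).

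ITGB4, an integrin chain of the hemidesmosome, was called with COL17A1. It had 1.78, 0.698 and 1.39 CPM in MDST8 WT and 756, 738 and 779.9 CPM in the LoVo-labelled control libraries (log2 fold change -9.20, SE 0.0940, adjusted p = 8.72e-34), whereas ITGA6, its partner chain, had 412, 407 and 401 and 422, 420.2 and 399 CPM and a log2 fold change with a 95% interval of -0.11 to 0.06. The laminin chains LAMA3 and LAMB3 were called with ITGB4, at 0.715 ± 0.325 and 81.2 ± 2.08 CPM and at 20.96 ± 0.823 and 499 ± 8.62 CPM. The chains LAMB1 and LAMC1, shared by many laminins, were not called, at 292 ± 9.47 and 246 ± 2.41 CPM and 282 ± 7.31 and 248.8 ± 4.04 CPM. The fibronectin receptor chains ITGA5 and ITGB1 were higher in MDST8 WT, at 385 ± 4.32 and 27.3 ± 1.98 CPM and 779 ± 11.3 and 289 ± 16.9 CPM, as was ITGA3 at 1344 ± 63.6 and 54.4 ± 3.72 CPM. ITGA4 had no count in the LoVo-labelled control libraries and 35.9 ± 1.35 CPM in MDST8 WT. Over the list, 13 of 27 tested were higher in MDST8 WT and 10 in the LoVo-labelled control libraries.

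MMP2, a gelatinase, and SFRP1, a secreted WNT antagonist, had with COL6A2 the largest fitted folds of the protein-coding genes higher in MDST8 WT. SFRP1 had 1858, 1889 and 1733 CPM in MDST8 WT and no count in the LoVo-labelled control libraries, at least 10928-fold higher. MMP2 had 1209, 1198 and 1152 CPM and no count, at least 7098-fold higher. The other protein-coding genes among the 12 largest were VAT1L, BASP1, SERPINB2, CRMP1, RTL8C, NTM, KIAA1549L, PLEKHG4B and PDPN, each without a count in the LoVo-labelled control libraries and with a mean of 129 to 313 CPM in MDST8 WT. The largest folds in the other direction were those of TSPAN8, LGR5, CEACAM5, TINAGL1, MYH14, ALDH2, CDH1, CDX2, SERPINB5, ALPG, SPINT2 and LAD1, with MYH14, a non-muscle myosin, at 308 ± 20.3 CPM and SERPINB5, the epithelial serpin maspin, at 222 ± 11.6 CPM in the LoVo-labelled control libraries and no count in MDST8 WT. PDPN encodes podoplanin, a mucin-type membrane protein,.

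Most factors that specify the intestine were lower in MDST8 WT. Of 15 intestinal transcription factors tested, 13 were higher in the LoVo-labelled control libraries, 1 was higher in MDST8 WT and 1 was not called (median log2 fold change -3.81). CDX2 (chr13:27960918-27969315), which specifies intestinal fate, had 0 counts in MDST8 WT and 251, 252 and 274 CPM in the LoVo-labelled control libraries, at least 1704-fold higher. CDX1, HNF4A and ISX had no count in MDST8 WT and means of 26.9, 171 and 18.2 CPM in the LoVo-labelled control libraries. ONECUT2 was not called at 13.3 ± 0.886 and 10.8 ± 0.530 CPM. GATA4, a factor of the small intestine and stomach, ran the other way: it had 31.7, 37.0 and 33.5 CPM in MDST8 WT and 0.122, 0.249 and 0 CPM in the LoVo-labelled control libraries (log2 fold change 7.97, SE 0.221, adjusted p = 1.32e-23), whereas GATA6 stood at 7.45 ± 0.411 and 105 ± 3.58 CPM.

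Intestinal differentiation genes gave 29 of 30 tested higher in the LoVo-labelled control libraries, with a median log2 fold change of -11.71, or -8.64 with genes at 0 set to their lower bound. The summed level of the whole list was 6.08 to 6.42 CPM in the MDST8 WT libraries and 2978 to 3046 CPM in the LoVo-labelled control libraries. TSPAN8, a tetraspanin of gut epithelium, had no count in MDST8 WT and 663, 731 and 673 CPM, at least 4531-fold higher. CEACAM5, the carcinoembryonic antigen, and MUC13, a membrane mucin, stood at 0 against 379.9 ± 11.1 CPM and at 1, 0 and 0 counts against 451 ± 2.87 CPM. Genes of several cell types of the gut were among them: MUC2 and REG4 of goblet cells had means of 51.8 and 118 CPM in the LoVo-labelled control libraries, VIL1 and DPP4 of the brush border 37.9 and 174 CPM. ALPP and ALPG, near-identical phosphatases, had means of 136 and 220.4 CPM, and the division of reads between them is uncertain. CDHR2, a brush-border protocadherin, was the exception, at 2.03 ± 0.291 and 0.760 ± 0.0544 CPM.

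Genes of WNT signalling and of stem cells did not move one way, with 10 higher in MDST8 WT, 10 higher in the LoVo-labelled control libraries and 3 not called of 23 tested. LGR5, the receptor that marks crypt stem cells, had no count in MDST8 WT and 385, 389 and 387 CPM in the LoVo-labelled control libraries. RNF43, a ligase that removes WNT receptors, and ASCL2, a stem-cell factor, were likewise at 0 against 36.6 and 4.72 CPM. The pathway's feedback genes divided: AXIN2 stood at 47.0 ± 0.221 and 187 ± 4.18 CPM (-1.99), NOTUM at 0.0332 ± 0.0288 and 13.8 ± 1.45 CPM and NKD1 at 102 ± 6.02 and 15.7 ± 0.343 CPM (2.70). The DNA-binding partners of β-catenin divided too, with TCF7 and LEF1 higher in MDST8 WT (2.05 and 0.96) and TCF7L2 higher in the LoVo-labelled control libraries (-1.23). MYC stood at 79.9 ± 3.37 and 578 ± 6.68 CPM and CD44 at 1274 ± 9.42 and 227 ± 7.20 CPM. SOX9 was not called, at 297 ± 7.6 and 236 ± 4.67 CPM.

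**Figure D4:**
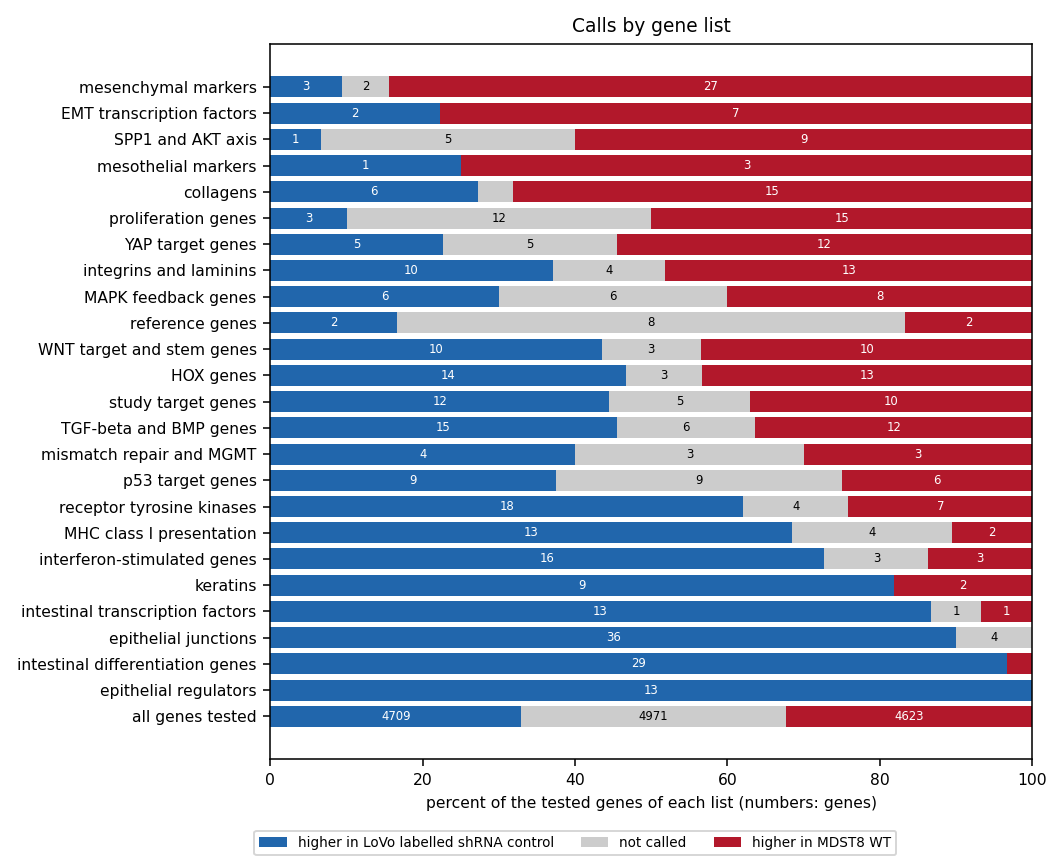
Share of the tested genes of each list that was called in each direction, with the number of genes in each bar; the lowest bar is all 14303 genes tested. Epithelial regulators, intestinal differentiation genes and junctions lie at the blue end with 13 of 13, 29 of 30 and 36 of 40 genes, and mesenchymal markers at the red end with 27 of 32.

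The HOX genes, which record the position of a cell along the body axis, divided by cluster. In the HOXA cluster on chromosome 7, all 9 genes tested were higher in the LoVo-labelled control libraries, and the summed level of the cluster was 10.1 to 10.9 CPM in MDST8 WT and 332 to 352 CPM in the LoVo-labelled control libraries. HOXA9 had no count in MDST8 WT and 69.7, 74.1 and 79.4 CPM, and HOXA13, the last gene of the cluster, stood at 0.472, 0.299 and 0.199 against 171, 182 and 168 CPM. In the HOXC cluster on chromosome 12, all 7 genes tested were higher in MDST8 WT, with sums of 76.0 to 86.2 against 5.17 to 6.62 CPM. HOXC10 had 35.9, 30.3 and 31.1 CPM in MDST8 WT and no count in the LoVo-labelled control libraries. The HOXB cluster was expressed in both lines, with sums of 541 to 577 and 391 to 414 CPM, 3 genes higher in MDST8 WT, 4 higher in the LoVo-labelled control libraries and 2 not called. Within it, HOXB2 stood apart at 99.9 ± 8.13 and 0.378 ± 0.153 CPM (8.05), while HOXB9 was not called at 116 ± 8.70 and 166 ± 1.70 CPM and HOXB13 was higher in the LoVo-labelled control libraries at 5.68 ± 0.383 and 34.9 ± 1.5 CPM. HOXD13 had no count in MDST8 WT and 6.57, 9.46 and 9.73 CPM. Strand was not used in counting, so reads of these genes and of antisense RNAs across the clusters cannot be told apart.

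**Figure D5:**
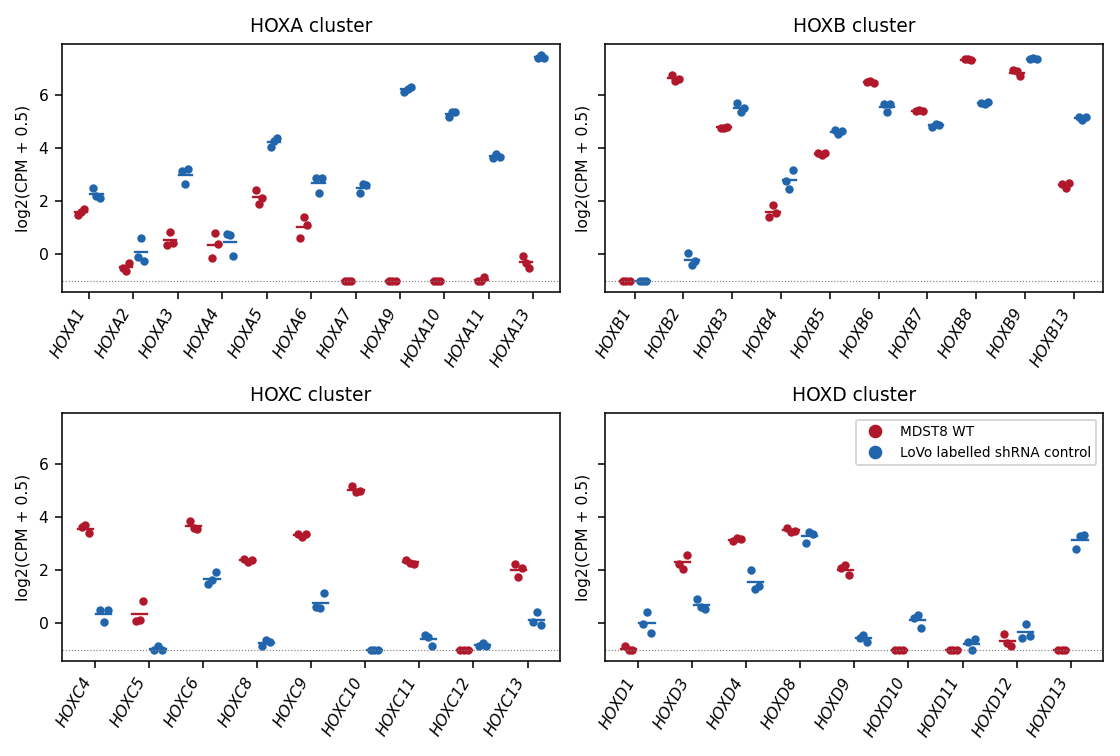
Level of each HOX gene as log2(CPM + 0.5) in each library, by cluster and gene number, with a bar at the mean (n = 3); the dotted line is 0 CPM. HOXA7 to HOXA13 and HOXD13 are at or near 0 in MDST8 WT, HOXC10 is at 0 in the LoVo-labelled control libraries, and most HOXB genes are expressed in both.

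Receptor tyrosine kinases were mostly higher in the LoVo-labelled control libraries, with 18 of 29 tested, against 7 in MDST8 WT. ERBB3, the partner of ERBB2, had 1.42, 1.40 and 2.04 CPM in MDST8 WT and 354, 349.7 and 334 CPM (log2 fold change -7.73, SE 0.0838, adjusted p = 3.21e-33). MET, EPHA2, DDR1 and INSR were also higher there, at 242 ± 1.62 and 659 ± 33.1 CPM, 179.7 ± 6.71 and 585 ± 9.47 CPM, 68.5 ± 5.90 and 333 ± 8.98 CPM and 9.34 ± 0.970 and 128 ± 5.87 CPM. MDST8 WT had more AXL (above), DDR2, a collagen receptor of mesenchyme, at 102 ± 2.95 and 1.32 ± 0.570 CPM, and FGFR1 at 211 ± 0.372 and 66.1 ± 4.42 CPM. EGFR and ERBB2 lay at the threshold, with log2 fold changes of 0.59 and -0.58, and lost their calls under several settings. Feedback genes of the MAPK pathway had no common direction, with 8 higher in MDST8 WT, 6 higher in the LoVo-labelled control libraries and 6 not called. DUSP6, SPRY4, SPRED2 and ETV5 were among those not called, whereas FOSL1 and CCND1 were higher in MDST8 WT, at 467 ± 7.90 and 81.1 ± 1.73 CPM and 1539 ± 32.6 and 422 ± 8.75 CPM, and DUSP5 and ETV4 in the LoVo-labelled control libraries, at 36.8 ± 2.34 and 800.0 ± 24.1 CPM and 30.1 ± 2.37 and 187 ± 9.18 CPM.

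Of the genes of TGF-β and BMP signalling, 12 were higher in MDST8 WT and 15 in the LoVo-labelled control libraries of 33 tested. Both branches were split. Of the TGF-β branch, the ligands and latent-binding proteins higher in MDST8 WT included INHBA at 456 ± 9.19 and 19.4 ± 2.4 CPM, TGFB1 at 356 ± 15.02 and 129.8 ± 1.95 CPM and LTBP1 at 122 ± 3.34 and 40.7 ± 2.04 CPM, with the receptor TGFBR2 at 165 ± 3.76 and 55.0 ± 3.79 CPM and the target PMEPA1 at 385 ± 32.0 and 30.6 ± 2.53 CPM. The ligands TGFB2 and TGFB3 and the co-receptor TGFBR3 were higher in the LoVo-labelled control libraries, at 10.2 ± 1.35 and 19.8 ± 0.930 CPM, 1.18 ± 0.258 and 2.31 ± 0.289 CPM and 6.58 ± 0.761 and 53.4 ± 0.210 CPM, and TGFB3 lost its call under 1 setting. Of the BMP branch, the ligands BMP4 and BMP7 and the targets ID1, ID3 and SMAD6 were higher in the LoVo-labelled control libraries, with BMP4 at 54.8 ± 5.80 and 826 ± 15.6 CPM and SMAD6 at 6.81 ± 0.486 and 71.5 ± 2.11 CPM, while BMP2 was higher in MDST8 WT at 68.5 ± 4.21 and 30.5 ± 0.737 CPM. GDF15, a stress cytokine of the family that p53 also induces, had 59.2, 54.8 and 49.9 CPM in MDST8 WT and 1297, 1362 and 1432 CPM. Targets of YAP gave 12 of 22 higher in MDST8 WT and 5 higher in the LoVo-labelled control libraries. CCN1 and CCN2, secreted matrix proteins, stood at 218 ± 3.97 and 37.5 ± 3.28 CPM and 318 ± 7.18 and 24.6 ± 0.594 CPM, F3 ran the other way at 6.78 ± 0.797 and 110.0 ± 1.90 CPM, and ANKRD1 was not called.

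Antigen presentation by MHC class I gave a split between its chains. B2M (chr15:44711358-44718851), the light chain of all class I molecules, had 643, 576 and 595 CPM in MDST8 WT and 34.5, 37.2 and 36.0 CPM in the LoVo-labelled control libraries (log2 fold change 4.07, SE 0.0549, adjusted p = 3.81e-31). The heavy chains were higher in the LoVo-labelled control libraries: HLA-B stood at 124 ± 2.61 and 450.2 ± 2.58 CPM and HLA-C at 276 ± 7.62 and 475 ± 15.1 CPM, though reads of these paralogs are uncertain. Per length of exon, B2M in the LoVo-labelled control libraries was at 11.5 RPKM (CPM per kb of exon) and HLA-B at 97.4 RPKM, against 194 and 26.7 RPKM in MDST8 WT. TAP1, TAP2, PSMB8 and PSMB9, of peptide transport and cleavage, followed the heavy chains, and over the list 13 of 19 were higher in the LoVo-labelled control libraries and 2, B2M and CALR, in MDST8 WT. Interferon-stimulated genes gave 16 of 22 tested higher in the LoVo-labelled control libraries and 3 higher in MDST8 WT (median log2 fold change -1.55). BST2, IFI27, OASL and MX1, antiviral effectors, stood at 1.16 ± 0.279 and 161 ± 0.977 CPM, 0.323 ± 0.128 and 93.1 ± 12.8 CPM, 0.185 ± 0.102 and 86.3 ± 1.47 CPM and 1.84 ± 0.101 and 79.99 ± 1.38 CPM. STAT2, a factor upstream of them, was higher in MDST8 WT at 97.3 ± 3.23 and 47.4 ± 3.62 CPM.

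The remaining cell-state lists moved less. Of 30 proliferation genes, 15 were higher in MDST8 WT, 3 were higher in the LoVo-labelled control libraries and 12 were not called, with a median log2 fold change of 0.60, close to the threshold of 0.58. MKI67 stood at 419 ± 27.3 and 263 ± 26.4 CPM, E2F1 at 139.9 ± 10.4 and 31.4 ± 1.09 CPM and RRM2 at 424 ± 7.04 and 133 ± 1.11 CPM, whereas TOP2A was not called (-0.08 to 0.11). Of 24 targets of p53, 6 were higher in MDST8 WT, 9 in the LoVo-labelled control libraries and 9 were not called. CDKN1A, the p21 inhibitor, was not called at 459 ± 15.3 and 662 ± 10.0 CPM, MDM2 and BTG2 were higher in the LoVo-labelled control libraries (-1.40 and -3.27) and TP53I3 and BAX in MDST8 WT (3.34 and 1.14). MGMT, which repairs alkylated guanine, stood at 4.30, 3.59 and 3.69 CPM in MDST8 WT and 32.5, 31.5 and 30.6 CPM (log2 fold change -3.03, SE 0.106, adjusted p = 4.01e-21).

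SPP1 encodes osteopontin, a secreted ligand of CD44 and integrins that the study also examined. It had 45.9, 44.3 and 42.6 CPM in MDST8 WT and 0, 0 and 1 counts in the LoVo-labelled control libraries, a ratio of 2349-fold (95% counting interval 422 to 92790.4). SPON2 is a secreted matrix protein of the spondin family. The study reports it as a direct target of TWIST1, on ChIP-qPCR, a promoter reporter and knockout cells as well. SPON2 had 6.13, 8.63 and 7.12 CPM in MDST8 WT and 1.34, 0.797 and 1.47 CPM in the LoVo-labelled control libraries (log2 fold change 2.62, SE 0.226, adjusted p = 9.6e-12). The groups did not overlap for either. Receptors of osteopontin were higher in MDST8 WT, with CD44 at 1280.1, 1278 and 1263 against 229, 234 and 219.6 CPM, ITGAV at 252 ± 8.11 and 145 ± 3.37 CPM and ITGB3 at 4.14 ± 0.724 and 0.597 ± 0.174 CPM. Of the AKT kinases, AKT2 stood at 176 ± 3.95 and 108 ± 4.84 CPM and AKT1, not called, at 214 ± 5.6 and 167 ± 2.35 CPM. Of the 15 members, 9 were higher in MDST8 WT and 5 were not called. The 27 genes that the study names as direct targets of TWIST1 gave 10 higher in MDST8 WT, 12 higher in the LoVo-labelled control libraries and 5 not called, near the shares of all genes. The study chose them on comparisons that share these samples, so they are not independent evidence. SLC7A5, an amino acid transporter, was the most different of those higher in the LoVo-labelled control libraries, at 17.8 ± 2.41 and 1131 ± 37.4 CPM, and SYNE1, a nuclear envelope protein, of those higher in MDST8 WT, at 215 ± 12.6 and 5.32 ± 0.156 CPM.

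Genes often used to normalize expression were not all level between the lines. Of 12, 8 were not called. ACTB had 12521, 12484 and 12229 CPM in MDST8 WT and 3300.4, 3411 and 3410.3 CPM in the LoVo-labelled control libraries (log2 fold change 1.88, SE 0.0418, adjusted p = 5.81e-26), the largest difference in mean CPM of any protein-coding gene higher in MDST8 WT. RPLP0 ran the other way, at 1588, 1519 and 1470.1 and 6774, 7019 and 6791 CPM (log2 fold change -2.17, SE 0.0439, adjusted p = 5.65e-27). GUSB and SDHA were also called, at 0.69 and -0.82. HPRT1, YWHAZ and GAPDH were not, with log2 fold changes of 0.08, 0.12 and -0.23.

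RPLP0 was not alone. EEF1A1 and EEF2, elongation factors of translation, and RPL13A, RPL4, RPL3 and RPS2 filled most of the 8 largest differences in mean CPM towards the LoVo-labelled control libraries, with EEF1A1 at 6215, 6117 and 5985 and 21890.1, 22692 and 21773 CPM. A count over all ribosomal protein genes, chosen after these values were seen, gave 71 of 78 tested higher in the LoVo-labelled control libraries, 1 higher in MDST8 WT and 6 not called, with a median log2 fold change of -1.68. They took 3.21 to 3.49% of all counts in the MDST8 WT libraries and 10.0 to 10.4% in the LoVo-labelled control libraries. These groups do not overlap, and the exact two-sided permutation test gave p = 0.10, the smallest that 3 against 3 libraries allow. Since the set was chosen after its values were seen, this p adds no independent evidence. The proteins of the mitochondrial ribosome were mostly not called, with 9 higher in MDST8 WT, 17 higher in the LoVo-labelled control libraries and 51 not called of 77. Their share of counts was 0.337 to 0.351% in the MDST8 WT libraries and 0.369 to 0.389% in the LoVo-labelled control libraries. The same permutation test also gave p = 0.10 for this share, so it does not tell the sets apart. Many ribosomal genes have processed pseudogenes, and reads shared with them are uncertain. Transcripts of the mitochondrial genome took 2.4 to 3.05% of counts in MDST8 WT and 3.49 to 3.96% in the LoVo-labelled control libraries; their part in these differences was not tested.

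Of the 190 genes restricted to MDST8 WT 170, and of the 316 restricted to the LoVo-labelled control libraries 293, were protein-coding, as were 12652 of all 14303 genes tested. After SFRP1, COL6A2 and MMP2, the highest in MDST8 WT were TRIM55, VAT1L, VCAN, BASP1 and SERPINB2, with TRIM55 at 346, 334 and 334 CPM and VCAN, the proteoglycan versican, at 272, 292 and 290.5 CPM, each with 1 count over the LoVo-labelled control libraries. The highest in the LoVo-labelled control libraries were GCNT3, a glycosyltransferase of mucins, at 888, 899 and 860.3 CPM, then TSPAN8, CALB1, PLBD1, EPCAM, MUC13, TRIM31 and LGR5. CALB1, a calcium-binding protein, had 636, 693 and 631 CPM there and 0, 0 and 1 counts in the MDST8 WT libraries. Of the lists, intestinal differentiation genes held 21 genes restricted to the LoVo-labelled control libraries, junctions 15, intestinal factors 6 and epithelial regulators 5, while EMT factors (TWIST1, ZEB2 and SNAI2), collagens and mesenchymal markers held 3 each restricted to MDST8 WT. Of 1153 lncRNAs tested, 473 were higher in MDST8 WT and 372 in the LoVo-labelled control libraries, against 4623 and 4709 of all 14303 genes tested. TRHDE-AS1, LINC02984 and LINC00632 were among the 5 with the largest fold in MDST8 WT, at means of 35.9, 20.3 and 17.3 CPM without a count in the LoVo-labelled control libraries. LINC02582 and LINC03078 were among those of the LoVo-labelled control libraries, at 279.7 and 48.4 CPM, with 0, 0 and 2 and 0, 0 and 0 counts in MDST8 WT.

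The contrast of the lines was repeated in libraries that the comparison did not use, the 15 of 5 MDST8 TWIST1 knockout clones, each grown from a single cell, against the 3 labelled LoVo TWIST1 shRNA. TWIST1 RNA was still read in the clones, at 28.2 to 56.8 CPM. The clones labelled TG1-1 and TG2-2 lay wholly below the MDST8 WT libraries, at 34.3 to 38.4 and 28.2 to 30.1 CPM. The other clones overlapped with MDST8 WT, so the level of TWIST1 does not tell those clones from it. This contrast also holds the edits and the hairpin, and 13967 genes passed its filter, of which 4496 (32.2%) were higher in the clones and 4011 (28.7%) in the shRNA libraries. Of the 4600 genes higher in MDST8 WT that were tested again, 2904 (63.1%) were called in the same direction and 321 (6.98%) in the opposite one. Of the 3718 genes higher in the LoVo-labelled control libraries that were tested again, 2408 (64.8%) were called in the same direction and 245 (6.59%) in the opposite one. The restricted genes of MDST8 WT were called the same way in 180 of 190 cases and the opposite way in 5. Of the 316 restricted to the LoVo-labelled control libraries, 53 passed the filter, since 15 of the 18 libraries were MDST8, and all 53 were called the same way. A gene near 0 in MDST8 passed mainly by being high in the shRNA libraries, so the direction of these 53 was close to fixed by the filter. Without regard to the filter, the shRNA libraries lay wholly above the clones for 310 of the 316. This held for 3342 (71%) of all 4709 genes called higher in the LoVo-labelled control libraries. CDH1 stood at 175 to 203 CPM in the shRNA libraries and 0 to 0.0581 CPM in the clones, and ZEB2 at 0 to 0.107 and 85.1 to 113 CPM.

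Across the 14303 genes, Pearson's r of mean log2(RPM + 1) was 0.866 between the libraries labelled LoVo TWIST1 shRNA and the LoVo-labelled control libraries, 0.972 to 0.986 between MDST8 WT and its clones, and 0.627 between MDST8 WT and the LoVo-labelled control libraries, genes being no independent replicates. Between MDST8 WT and the libraries labelled LoVo TWIST1 shRNA r was higher than for the control libraries, at 0.705. Intestinal genes stood lower in the shRNA than in the LoVo-labelled control libraries, a difference not tested here, with CDX2 at 30.2 to 35.9 CPM, LGR5 at 22.9 to 23.8 CPM and CEACAM5 at 9.17 to 11.2 CPM, while EPCAM stood at 319 to 337 CPM. Mitochondrial transcripts took 5.47 to 10.9% of counts in the shRNA libraries and 2.38 to 4.37% in the clones, and their part in these values was not tested.

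Calls were not spread evenly over the genome. By chromosome the median log2 fold change ran from 0.74 on chromosome 20, where 55.6% of 383 genes were higher in MDST8 WT, to -0.58 on chromosome 12, where 49.5% of 772 genes were higher in the LoVo-labelled control libraries. In windows of 10 Mb with at least 20 genes tested, 193 of 247 had a median within 0.58 of zero, 31 lay above and 23 below. The highest median, 2.53 over 36 genes, was in the window from 20 to 30 Mb of chromosome 19; the highest median was 1.16 with 20-Mb windows and 1.01 with genes of at least 10 CPM. Of these genes 23 are named as zinc fingers (ZNF), and 19 of the 23 were higher in MDST8 WT, while the genes of highest CPM in the window, UQCRFS1, URI1 and POP4, had log2 fold changes of -0.60, -0.40 and 1.14. Next came the window from 110 to 120 Mb of chromosome 13, with a median of 1.14, where LAMP1, COL4A2 and TFDP1 had 2.25, 6.42 and 0.70, and that from 100 to 110 Mb of chromosome X, with a median of 1.10, where ACSL4, MORF4L2 and FAM199X had 1.62, -0.03 and 0.36. The lowest was that from 10 to 20 Mb of chromosome 12, with a median of -1.66 (-0.96 for the lowest of 20-Mb windows), where 33 of 42 genes were higher in the LoVo-labelled control libraries and none in MDST8 WT. GPRC5A, YBX3 and EPS8 were of highest CPM there, with log2 fold changes of -5.43, -3.14 and -3.60. The window from 30 to 40 Mb of the same chromosome had a median of -1.46, with SINHCAF, DDX11 and DNM1L at -3.57, -1.83 and -1.05, and that from 70 to 80 Mb of chromosome 5 a median of -0.98, with BTF3 and TNPO1 at -1.73 and -0.37. The number of copies of these regions was not measured.

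TWIST1 ChIP-seq peaks, from a single library of each line, were set beside the calls. At the study's threshold of p below 0.05, the lists held 338877 peaks in MDST8 and 333621 in LoVo. A peak of the MDST8 list lay within 3000 bp of the start of 77.7% of genes higher in MDST8 WT, of 73.4% of genes higher in the LoVo-labelled control libraries and of 77.2% of genes not called. The shares for the LoVo list were 58.2, 59.0 and 57.5%. The LoVo-labelled control RNA held no TWIST1 count, but the ChIP used other samples, which the paper describes as wildtype cells. The paper also shows western blots of TWIST1 in LoVo cells and in the LoVo pull-down. Protein was not measured here. Genes restricted to the LoVo-labelled control libraries had a peak of the MDST8 list in 62.3% of cases (95% exact binomial interval 56.7 to 67.7), below the 76.1% of all genes tested, and those restricted to MDST8 WT in 76.3% (69.6 to 82.2). With peaks of p at most 0.001, the shares were 17.7% of genes restricted to the LoVo-labelled control libraries, 27.5% of all genes tested and 22.1% of genes restricted to MDST8 WT. The promoters of TWIST1, VIM, SPP1 and CDH1 had a peak in the MDST8 list and none in the LoVo list, whereas those of ZEB1, ZEB2, CDH2, CDX2, MGMT and SPON2 had peaks in both. The MDST8 peaks of TWIST1, VIM, SPP1 and CDH1 had -log10 p of 2.54, 2.53, 2.85 and 1.49, so none met the cut of 0.001. Peaks of the MDST8 list were also the more common near all genes tested, at 76.1% against 58.2% for the LoVo list. No test between the lists was made, since each rests on 1 library.

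Markers of other cells were checked. None of the 11 markers of immune, blood and endothelial cells passed the filter, and their sum was 0.598 to 1.5 CPM in the MDST8 WT libraries and 0.647 to 1.47 CPM in the LoVo-labelled control libraries. PTPRC and CD3E had no count in MDST8 WT. Of 5 mesothelial markers 4 were tested. MSLN, mesothelin, was higher in the LoVo-labelled control libraries at 0.692 ± 0.0513 and 11.1 ± 1.5 CPM, and WT1, CALB2 and LRRN4 were higher in MDST8 WT, at 2.94 ± 0.270 and 0.342 ± 0.141 CPM, 3.56 ± 0.453 and 1.01 ± 0.187 CPM and 4.93 ± 1.31 and 1.00 ± 0.0817 CPM.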

How the data were processed

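RNA-seq measured polyadenylated RNA. The authors trimmed reads with Trim Galore 0.6.6, aligned them to hg38 with HISAT2 2.1.0 and counted reads per GENCODE gene with featureCounts 2.0.0 without using strand; the deposited counts are not normalized. The deposited peaks carry a -log10 p-value from MACS2 2.2.7.1. The exon length in bp, another deposited value, gave RPKM.

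Of 62703 rows, 600 of chromosome Y, and XIST, were left out. Symbols matched for 62686. Genes were kept at a geometric mean of RPM + 1, minus 1, of at least 1 over the 6 libraries. TMM factors and the quasi-likelihood test came from edgeR 4.0.16; alternatives used DESeq2 1.42.0 and limma 3.58.1. In data simulated for this comparison (14269 genes), all 100 genes changed 2-fold and all 100 changed 4-fold were called, with 0 false calls. These changes were few and balanced in direction, and all genes had the same dispersion. The simulation therefore did not test the scaling where 65.2% of the genes were called. Sampling noise did not account for the spread between replicates: chi-square per degree of freedom was 2.60 to 4.28. Intervals and the floor of 3 counts per library (0.149 to 0.182 CPM) cover counting error only.

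The members and lists were chosen with earlier results of these data known. Named genes are list members and, in each direction, the 12 protein-coding genes and 5 lncRNAs with the largest fold, the 8 with the largest difference in mean CPM, the 8 highest restricted genes and 3 of each extreme window. Some of these genes are not reported here.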

Additional observations from a re-analysis of the deposited data

How the results depend on the processing

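Under DESeq2, RLE or upper-quartile factors, library totals, voom, limma on log2(count + 1) or log2(RPM + 1), no filter, filterByExpr, a test against 0.58, a fit of all 24 libraries and without mitochondrial genes, the counts of genes called ranged from 4173 to 6860 in MDST8 WT and from 4181 to 6899 in the LoVo-labelled control libraries, all within 1.5 times the reported counts. Leaving out a library gave 4494 to 4718 and 4596 to 4762. Scaling by library totals and limma on log2(count + 1) moved the median log2 fold change of all genes to 0.10 and 0.13. A replicate block gave 4608 and 4697 calls; same-lettered libraries did not deviate together (r of -0.089, -0.039 and -0.022), so the letters pair nothing. Of 10174 values of single genes, 73 lost and 33 gained a call and none turned its direction while called; among those that lost it were EGFR, ERBB2, PMS2, CALR and PLK1.

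Without a filter the contrast of clones and shRNA libraries gave 6963 and 8993 calls. At 5 and 20 CPM, 291 and 120 genes were restricted to MDST8 WT, and 436 and 225 to the LoVo-labelled control libraries; the share of their promoters with CAGGTG or CACCTG, tried after seeing the data, was 14.5 and 9.52%, and 37.0 and 40.4%. With genes of at least 10 CPM, the median of chromosome 12 was -0.63, and the highest and lowest windows had medians of 1.01 and -2.04; with 20-Mb windows they had 1.16 and -0.96. Peaks within 1000 bp gave shares of 54.7, 49.2 and 54.0% for the MDST8 list (genes higher in MDST8 WT, higher in the LoVo-labelled control libraries, not called) and 32.0, 32.7 and 32.7% for the LoVo list; peaks of p at most 0.001 gave 29.5, 23.6 and 29.3%, and 17.7, 18.8 and 19.5%. Over all alternatives the count higher in the LoVo-labelled control libraries ranged from 17 to 40 for intestinal differentiation genes, from 6 to 15 for keratins and from 4 to 11 for collagens. The cause of these changes was not tested.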
